A study of Homo sapiens with 6 samples.

Results

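The tripartite motif (TRIM) genes encode a large family of mostly ubiquitin ligases, and their mRNA was followed in the human colorectal carcinoma line HCT116 after knockdown of NONO. Members were the genes whose Ensembl identifier carries a symbol made of TRIM, a number and at most 1 further letter, with 1 such gene left out by the rule and not analysed here. This gave 74 of the 62492 genes listed in the files. Wild-type HCT116 cells were transfected with siControl, a control siRNA, or with siNONO, an siRNA duplex against NONO, at 20 nM with lipofectamine RNAiMAX, and polyA RNA was sequenced. Each group held 3 libraries, described as biological replicates and labelled Set 1, Set 2 and Set 3, and each Set held 1 siControl and 1 siNONO library. Both groups share the cell line, the medium and the transfection. Because 1 duplex was used, loss of NONO and any other effect of that duplex cannot be told apart. The question here was which TRIM genes are expressed in these cells and which of them differ in mRNA level between siNONO and siControl.

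TRIM proteins are built from a RING domain, 1 or more B-boxes and a coiled coil, followed by a C-terminal domain that differs between members and often selects the substrate. The RING domain receives ubiquitin from an E2 enzyme and passes it on, so most members act as E3 ubiquitin ligases, while a few lack a RING and act as adaptors. A part of the family is induced by interferon and takes part in the defence against viruses, by binding incoming capsids, by marking viral proteins or by adding ubiquitin to sensors such as RIG-I. Other members work in chromatin, at microtubules, in muscle or in the quality control of proteins. NONO, the targeted gene, encodes an RNA-binding protein of paraspeckles, nuclear bodies assembled on a long non-coding RNA.

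The target and the libraries were checked first. NONO stood at 496, 495 and 516 CPM (estimated counts scaled to library size with the TMM factors of edgeR) in siControl and at 89.5, 95.5 and 100.4 CPM in siNONO, so 18.9% of its mRNA remained. Library totals ran from 21765393 to 32659002 counts. All 6 epithelial markers (EPCAM, KRT8, KRT18, KRT19, CDH1 and CLDN4) had at least 1 TPM (a level that also corrects for gene length) in every library. Of the 6 leukocyte markers only CD68, a lysosomal protein of macrophages, reached that level throughout. Their summed level was 3.14 to 6.63 TPM in siControl and 6.79 to 7.21 TPM in siNONO. CD68 rose by 1.40 on the log2 scale, and PTPRC, the pan-leukocyte phosphatase, was at most 0.01 TPM in every library. Of 6 striated muscle markers only TNNT1 had at least 1 TPM in every library, with means of 149 TPM in siControl and 148 TPM in siNONO. Of 5 endothelial and fibroblast markers found in the data only COL1A1 did, with means of 17.7 TPM in siControl and 17.4 TPM in siNONO.

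Of the 74 TRIM genes, 50 passed the filter on low counts and entered edgeR's quasi-likelihood F-test, in which the Set was a block and p-values were corrected by Benjamini-Hochberg over 17000 genes. A gene was called changed where its adjusted p did not exceed 0.05. Of the 50, 34 changed, 22 of them higher and 12 lower in siNONO. Among all genes tested, 46.6% changed, 23.2% higher and 23.4% lower, whereas 44% of the tested TRIM genes were higher and 24% lower. The excess over all genes therefore lay on the higher side. The median log2 fold change of the tested TRIM genes was 0.15, with quartiles of -0.19 and 0.44, beside a median of -0.00 and quartiles of -0.22 and 0.21 for all genes tested. Within Sets 1, 2 and 3 the median over the same TRIM genes was 0.10, 0.21 and 0.11. The CPM of the groups did not overlap for 36 TRIM genes, 23 with siNONO above and 13 with it below, beside 47.8% of all genes tested, 23.9% above and 24.0% below. DESeq2 called 27 of the TRIM genes and lost TRIM10, TRIM16L, TRIM24, TRIM68, TRIM69 and TRIM72, and it gave no adjusted p for TRIM29. On the TPM scale, limma on log2(TPM + 1) called 21, 11 of them higher and 10 lower, and over all genes it called 1643 higher and 3614 lower, a different split from that of the counts.

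**Figure D1:**
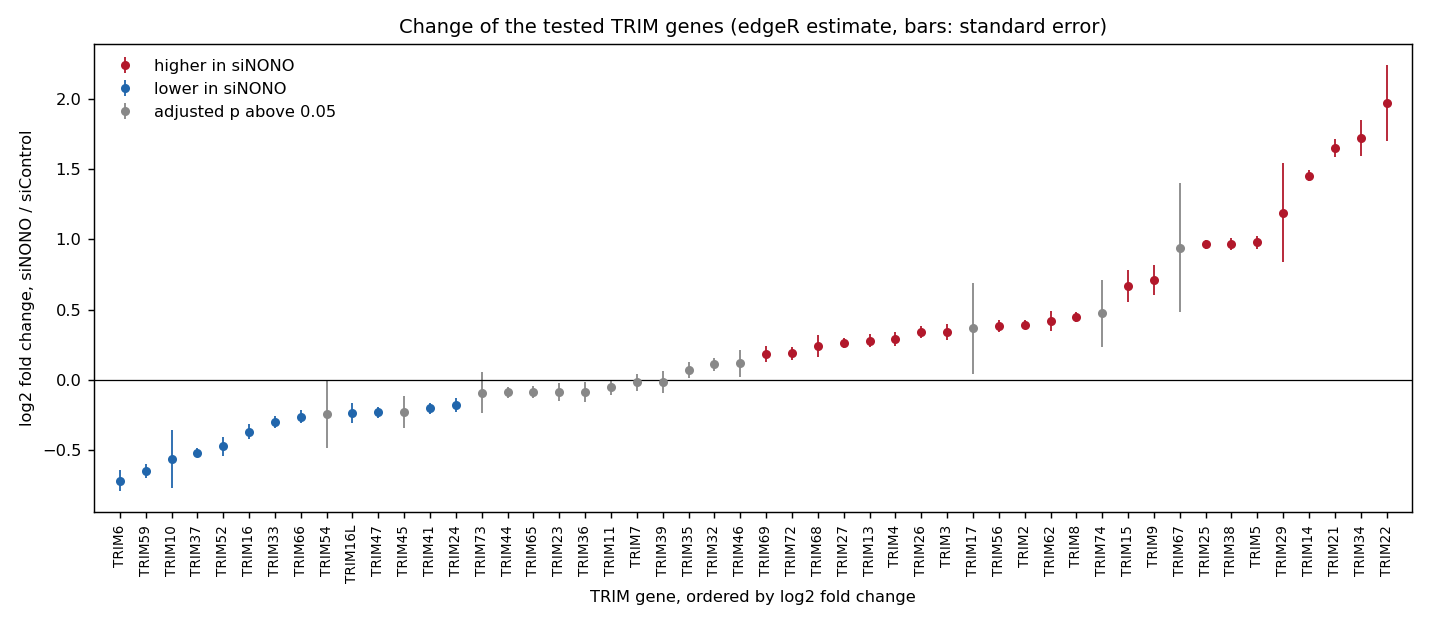
Log2 fold change of siNONO over siControl (vertical axis) for the 50 tested TRIM genes, ordered along the horizontal axis; points are edgeR estimates and bars their standard errors. TRIM6 stands lowest at -0.71 and TRIM22 highest at 1.97, and the 4 highest genes are all on the interferon-linked list.

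All 10 members of a list of interferon-linked TRIM genes were tested, and all 10 were higher in siNONO. Their median log2 fold change was 0.97, with a range of 0.19 to 1.97. Over all genes tested, 23.2% were higher and 23.4% lower. The 40 tested TRIM genes outside this list were higher in 12 cases and lower in 12, or 30% each way, with a median of -0.03. Among them was TRIM6, which acts with the kinase IKKε and was lower (log2 -0.71). The list thus does not hold every TRIM gene with a part in antiviral signalling. The list (TRIM5, TRIM14, TRIM21, TRIM22, TRIM25, TRIM26, TRIM34, TRIM38, TRIM56 and TRIM69) was drawn up from general knowledge with earlier results of these data known, so its direction is a description. The summed level of the leukocyte markers was also higher in siNONO, as given above, and this lay with CD68: the other 5 markers summed to 1.07 to 1.13 TPM in siControl and to 0.51 to 0.90 TPM in siNONO. The part of CD68-expressing cells in the result was not tested. In bulk RNA, more cells that express a gene and more RNA of it per cell cannot be told apart.

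TRIM22, an interferon-induced restriction factor of retroviruses, had the largest fold change of the family from a very low base. It stood at 0.486, 0.621 and 0.592 CPM in siControl and at 2.62, 1.80 and 2.25 CPM in siNONO, from 13 to 17 counts a library against 50 to 75. Every siNONO library was above every siControl library, and the log2 fold change was 1.97 with a standard error of 0.269 (adjusted p = 6.34e-05 by edgeR after Benjamini-Hochberg correction, the test behind each adjusted p given here unless another is named).

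TRIM34, a close relative of TRIM5 that can restrict retroviral capsids, was measured at 2.67, 3.07 and 3.51 CPM in siControl and at 11.05, 9.74 and 9.33 CPM in siNONO. The groups were well apart, at 3.30-fold (log2 1.72, standard error 0.129, adjusted p = 3.39e-07). For TRIM21, the cytosolic antibody receptor that marks antibody-coated virus for the proteasome, siControl gave 15.9, 13.7 and 14.1 CPM and siNONO 44.99, 42.9 and 50.04 CPM. This was a 3.13-fold difference (log2 1.65, standard error 0.0642, adjusted p = 1.06e-09) in which again no library of one group reached the other.

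TRIM14, on the minus strand of chromosome 9 from 100831557 to 100881504 (GRCh37, as for all gene positions here), lacks a RING and serves as an adaptor in antiviral signalling at mitochondria. Its siControl libraries lay close together at 43.6, 43.5 and 44.1 CPM, and its siNONO libraries at 118, 116 and 126 CPM. The difference was 2.74-fold (log2 1.45, standard error 0.0387, adjusted p = 4.13e-11), with the smallest adjusted p of the family. Some exon bases of TRIM14 are shared with NANS on the opposite strand. The library kit keeps the strand, but the strand setting of the counting is not given in the sources used here.

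TRIM5, TRIM38 and TRIM25 rose by similar factors, 1.97, 1.96 and 1.95. TRIM5, which recognises the capsid of incoming retroviruses, stood at 35.4, 37.6 and 34.8 CPM in siControl and at 72.9, 69.6 and 69.9 CPM in siNONO (adjusted p = 5.27e-09). TRIM38, a ligase that restrains inflammatory signalling, was at 39.5, 38.2 and 36.4 CPM against 74.98, 75.6 and 72.7 CPM (adjusted p = 2.65e-09). TRIM25 (chromosome 17, 54913748 to 54991441, minus strand), the ligase that adds ubiquitin to RIG-I and works with the antiviral protein ZAP, had 192, 196 and 203 CPM in siControl and 381, 362 and 410 CPM in siNONO (adjusted p = 3.5e-10). None of these genes had overlapping groups. TRIM5 shares exon bases on its own strand with an annotated gene that has no symbol, and with the counts of that gene added TRIM5 remained among the genes called.

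The other members of the list moved less. TRIM56, an antiviral ligase linked to STING, rose from 60.2 ± 0.507 CPM (SD, n = 3) to 78.6 ± 4.45 CPM, a log2 fold change of 0.38 (adjusted p = 1.12e-05). TRIM26, which acts on IRF3, rose from 47.6 ± 1.71 CPM to 60.4 ± 1.90 CPM (log2 0.34, adjusted p = 1.95e-05). TRIM69 was at 19.2, 19.7 and 21.9 CPM in siControl and at 22.8, 22.8 and 23.5 CPM in siNONO, a difference of 0.19 on the log2 scale (adjusted p = 0.0193) that was past the threshold by edgeR with the Set as a block. Without the block its adjusted p was 0.0623 and with DESeq2 0.197, and in TPM its log2 difference was -0.01. On the TPM scale TRIM56 also missed the threshold (adjusted p = 0.0595 from limma), so 8 of the 10 genes were called there, all of them higher.

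**Figure D2:**
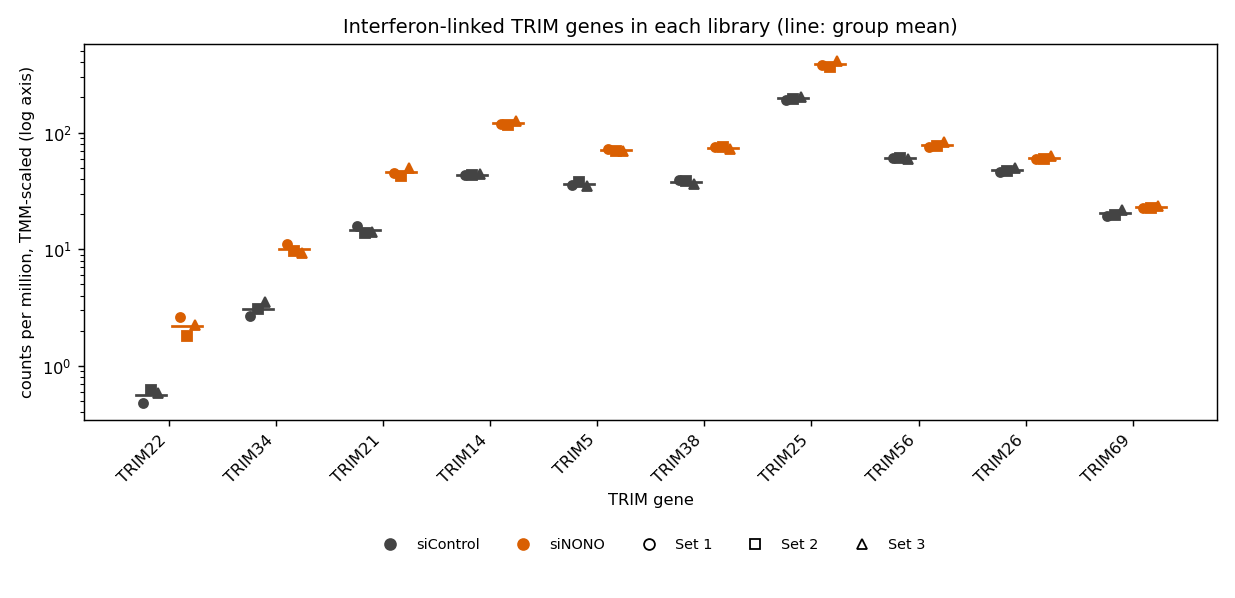
CPM in each of the 6 libraries (logarithmic vertical axis) for the 10 interferon-linked TRIM genes, with siControl in grey, siNONO in orange, a symbol for each Set and a line at each group mean. For every gene the 3 siNONO libraries lie above the 3 siControl libraries, by a wide gap for TRIM22, TRIM34, TRIM21 and TRIM14 and by a narrow one for TRIM69.

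The start sites of these genes were searched for a short motif that resembles the core of an interferon-stimulated response element, in RefSeq promoter windows of GRCh38.p14 from 250 bases before to 50 after each annotated start. The motif was GAAANNGAAA or its reverse complement TTTCNNTTTC, so both strands were covered, and matches may overlap. Of the 35116 windows in the table, 3.57% held a match, or 4.38% of 27305 genes counted once over all their windows. Among the 58 TRIM genes with an entry, 10 held one, or 17.2%. By call, a match was found for 7 of 16 genes that were higher, 1 of 10 that were lower, 1 of 13 with no call and 1 of 19 not tested. On the interferon-linked list 6 of 9 genes had one, and TRIM25, TRIM38 and TRIM56 did not, while TRIM22 has no entry. A match is a description of letters and not a site in use, and its absence says only that these letters are not in this window.

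The windows below are the 100 bases before the start of genes that show this contrast, 5′ to 3′ on the strand of the gene in lower case, with matches in capitals. They are TRIM14 (chr9:98119223-98119322, minus strand), TRIM5 (chr11:5685075-5685174, minus strand) and TRIM34 (chr11:5624901-5625000, plus strand), which rose, and TRIM44 (chr11:35662675-35662774, plus strand), which holds a match and was not called. TRIM6 (chr11:5596537-5596636, plus strand), which fell beside TRIM34 on the chromosome, has none. TRIM16, which was lower too, holds a match and is not shown. For TRIM21 (chr11:4393661-4393690, minus strand) 30 bases just after its start are shown, where 2 matches overlap.
TRIM14: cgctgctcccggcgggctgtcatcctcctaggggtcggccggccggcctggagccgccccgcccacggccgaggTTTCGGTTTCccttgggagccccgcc
TRIM5: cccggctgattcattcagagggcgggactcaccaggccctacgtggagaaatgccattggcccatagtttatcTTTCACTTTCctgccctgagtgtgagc
TRIM34: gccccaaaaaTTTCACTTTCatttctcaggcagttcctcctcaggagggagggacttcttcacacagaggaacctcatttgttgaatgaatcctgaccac
TRIM44: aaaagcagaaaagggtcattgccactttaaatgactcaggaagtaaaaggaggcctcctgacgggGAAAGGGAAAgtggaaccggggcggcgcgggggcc
TRIM6: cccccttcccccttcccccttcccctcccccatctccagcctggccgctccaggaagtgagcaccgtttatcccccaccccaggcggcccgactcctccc
TRIM21: gagcgGAAACTGAAAGTGAAAtagggagct

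The first base of the match lay at -26 from the start in TRIM14, at -27 in TRIM5 and at -90 in 1 of the annotated windows of TRIM34, counted with no position 0. In TRIM21 the matches began at 18 and 24 bases past it. TRIM44, at -35, had its match at a similar distance from the start as TRIM14 and TRIM5 without a call. The match of TRIM16, which was called lower, began at -80.

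Outside the interferon-linked list, 12 TRIM genes were higher in siNONO. TRIM29 (chromosome 11, 119981994 to 120056237, minus strand), a RING-less member known from epithelia and from DNA damage, stood at 0.395, 0.767 and 0.592 CPM in siControl and at 1.75, 1.04 and 1.18 CPM in siNONO, from 13 to 21 counts a library against 29 to 50. The groups did not overlap, and siNONO was 2.28-fold higher (log2 1.19, standard error 0.352, adjusted p = 0.0143). The value leaned on Set 1: it was 2.11 in Set 1, 0.43 in Set 2 and 0.96 in Set 3, and without the siControl library of Set 1 it fell to 0.70 with an adjusted p of 0.17. Without the siNONO library of Set 1 it was also 0.70, with an adjusted p of 0.204. On the TPM scale the call was lost, with a log2 difference of 0.18 (adjusted p = 0.267 from limma on log2(TPM + 1)), as the mean went from 0.60 ± 0.070 TPM (SD, n = 3) in siControl to 0.813 ± 0.144 TPM in siNONO.

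TRIM9, a neuronal ligase of axon guidance, rose from 4.58, 5.30 and 5.10 CPM to 7.52, 9.46 and 7.55 CPM (log2 0.71, standard error 0.105, adjusted p = 0.000126). TRIM15, a protein of focal adhesions, rose from 3.98, 4.20 and 4.603 CPM to 6.19, 6.72 and 7.40 CPM (log2 0.67, standard error 0.113, adjusted p = 0.000341). Neither gene had overlapping groups. TRIM9 missed the threshold on the TPM scale, with a log2 difference of 0.34 (adjusted p = 0.0579 from limma).

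The remaining 9 of the 12 changed by 0.19 to 0.45 on the log2 scale. TRIM8, a ligase linked to cytokine signalling, stood at 53.9, 55.7 and 58.9 CPM in siControl and at 74.5, 74.9 and 80.5 CPM in siNONO (log2 0.45, adjusted p = 9.77e-07). TRIM2, which acts on neurofilament light chain, was at 132, 118 and 113 CPM against 176, 160 and 142 CPM (log2 0.39, adjusted p = 1.13e-06). TRIM27, first found as a fusion partner of RET, was at 79.9, 81.9 and 83.0 CPM against 98.4, 94.3 and 101 CPM (log2 0.26, adjusted p = 6.9e-05). In each of these the siNONO libraries were all above the siControl libraries. TRIM62, a regulator of epithelial polarity, went from 12.4 ± 0.544 CPM (SD, n = 3) to 16.5 ± 0.690 CPM (log2 0.42, adjusted p = 0.000396). TRIM3, the closest relative of TRIM2, went from 16.2 ± 0.466 CPM to 20.5 ± 0.704 CPM (log2 0.34, adjusted p = 0.000438).

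For TRIM13, a ligase anchored in the endoplasmic reticulum, the groups overlapped when the Sets were ignored: siControl stood at 40.2, 37.0 and 33.1 CPM and siNONO at 48.2, 47.1 and 38.7 CPM, with the Set 3 library of siNONO below the Set 1 library of siControl. Within each Set siNONO was higher, and the difference was called (log2 0.28, adjusted p = 0.000348). TRIM4 was higher by 0.29 on the log2 scale, TRIM68 by 0.24 and TRIM72, which seals the membrane of muscle cells, by 0.19. TRIM13, TRIM27, TRIM3, TRIM4, TRIM62, TRIM68 and TRIM72 were not called on the TPM scale.

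The 12 TRIM genes that were lower had log2 fold changes from -0.71 to -0.18. TRIM6, a ligase that makes unanchored ubiquitin chains for the kinase IKKε, stood at 15.99, 15.6 and 14.5 CPM in siControl and at 9.79, 9.24 and 9.05 CPM in siNONO. All siNONO libraries were below all siControl libraries, and 60.9% of the siControl level remained (log2 -0.71, standard error 0.0721, adjusted p = 4.64e-06). TRIM59 (chromosome 3, 160150233 to 160203561, minus strand), a member with a transmembrane segment, was at 48.6, 46.7 and 42.4 CPM against 31.6, 31.2 and 25.1 CPM (log2 -0.65, standard error 0.0512, adjusted p = 5.43e-07). It shares exon bases with SMC4 on the opposite strand and with a read-through gene on its own strand, and adding the counts of the latter did not end the call.

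TRIM37 (chromosome 17, 57059999 to 57184282, minus strand), a MATH-domain ligase that limits centriole assembly and marks histone H2A, was at 121, 126 and 117 CPM in siControl and at 84.4, 86.4 and 83.5 CPM in siNONO. The siNONO libraries lay close together (84.7 ± 1.49 CPM, SD, n = 3), and 69.9% of the siControl level remained (log2 -0.52, standard error 0.0339, adjusted p = 1.04e-07). TRIM10, a gene of red cell maturation, was low throughout, at 2.40, 2.85 and 1.91 CPM against 1.47, 1.80 and 1.57 CPM (log2 -0.56, standard error 0.203, adjusted p = 0.0384). Its groups did not overlap, but DESeq2 gave an adjusted p of 0.237, and leaving out a library of Set 1 or Set 2 took edgeR's adjusted p to between 0.151 and 0.188.

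Of the other 8 lower genes, TRIM52 was at 16.3, 18.5 and 14.5 CPM in siControl and at 11.8, 12.7 and 11.1 CPM in siNONO (log2 -0.47, adjusted p = 0.000113). It shares 1868 exon bases with a non-coding gene on the opposite strand. TRIM16, which recognises damaged endosomes, fell by 0.37. Among the members analysed here were 3 chromatin readers with a PHD finger and a bromodomain. All 3 were called lower by edgeR, beside 23.4% of all genes tested. TRIM33, a ligase of SMAD4, fell by 0.30 and TRIM66, which has no RING, by 0.26. TRIM24, a cofactor of nuclear receptors, fell by 0.18 (adjusted p = 0.0117). TRIM24 was not called with DESeq2 (adjusted p = 0.13), in TPM (adjusted p = 0.0844 from limma) or without any 1 library of Set 1 or Set 2 (adjusted p of 0.052 to 0.152), which leaves 2 of the 3. For TRIM33 the siControl libraries were at 110, 107 and 105 CPM and the siNONO libraries at 91.9, 92.5 and 77.3 CPM (adjusted p = 0.000106). TRIM47 was at 62.0, 64.6 and 69.2 CPM against 52.1, 54.7 and 60.3 CPM, a fall in every Set by about the same amount (log2 -0.25, -0.24 and -0.20). TRIM41 went from 70.0 ± 2.56 CPM (SD, n = 3) to 60.9 ± 3.09 CPM (log2 -0.20, adjusted p = 0.00118), and TRIM16L fell by 0.24. TRIM16 and TRIM16L, the latter annotated as a transcribed pseudogene, are near-identical copies. Both had fractional counts in every library, which shows that reads were divided among genes, so their separate values are uncertain. TRIM16 also shares 1327 exon bases on its own strand with an annotated gene that has no symbol. Its reads need not have been divided with TRIM16L. Other members, such as TRIM14 and TRIM37, had fractional counts in every library too.

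**Figure D3:**
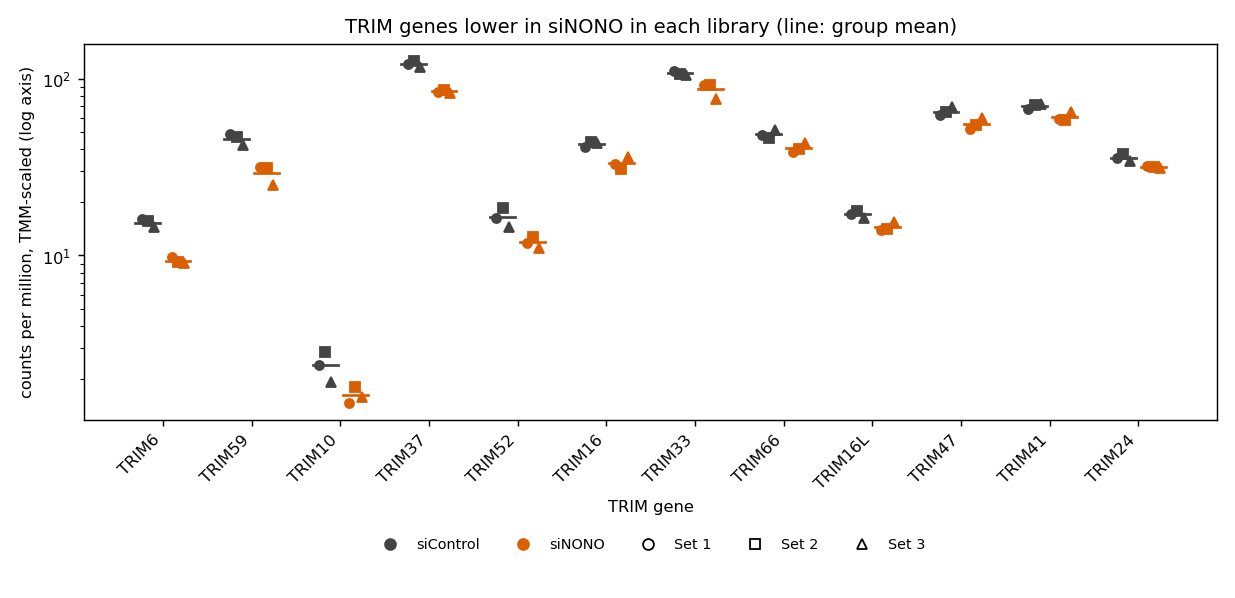
CPM in each library (logarithmic vertical axis) for the 12 TRIM genes that were lower in siNONO, with siControl in grey, siNONO in orange, a symbol for each Set and a line at each group mean. The widest gaps are those of TRIM6, TRIM59 and TRIM37, and no siNONO library reaches a siControl library of the same gene.

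Many TRIM genes lie side by side. On the short arm of chromosome 11 (GRCh37), 7 members fall between 4406127 and 6495689 with no gap over 1 Mb, in the order TRIM21, TRIM68, TRIM6, TRIM34, TRIM5, TRIM22 and TRIM3. All 7 changed, 6 higher and 1 lower, beside 46.6% of all genes tested, 23.2% higher and 23.4% lower. Of the higher ones, TRIM21, TRIM34, TRIM5 and TRIM22 are on the interferon-linked list. TRIM6, from 5617339 to 5634188, fell in every Set, by 0.71 in Set 1, 0.75 in Set 2 and 0.68 in Set 3. TRIM34 begins next to it at 5640994 on the same strand and rose in every Set, by 2.04, 1.66 and 1.41. The annotated read-through gene TRIM6-TRIM34 held at most 0.37 counts in any library, and adding its counts to TRIM34 left the calls as they were. TRIM68 and TRIM3, at either side, changed by only 0.24 and 0.34, and the call of TRIM68 was lost with DESeq2 (adjusted p = 0.236).

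**Figure D4:**
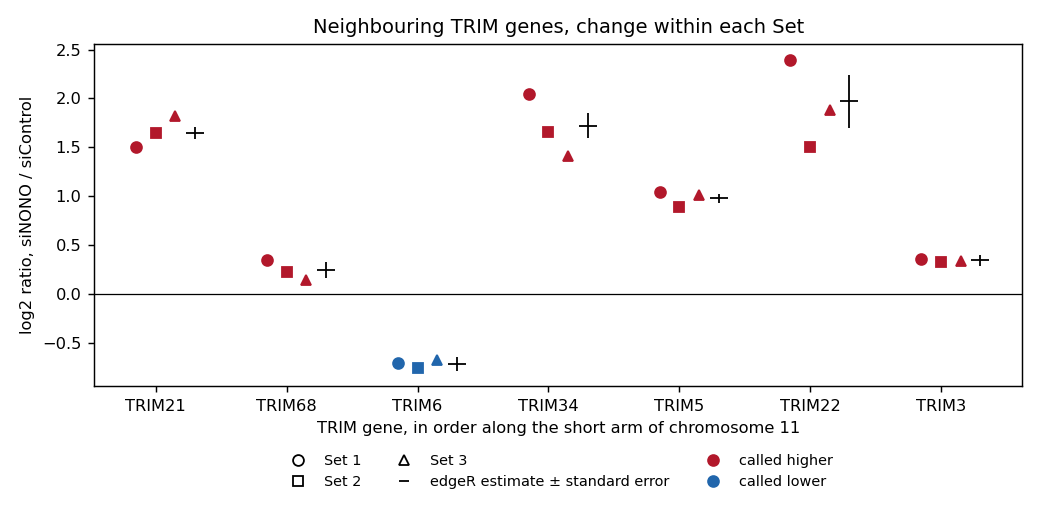
Log2 ratio of siNONO over siControl within Sets 1, 2 and 3 (coloured symbols) and edgeR's estimate with its standard error (black) for the 7 neighbouring TRIM genes on the short arm of chromosome 11, in chromosomal order. TRIM6 lies below 0 in every Set between TRIM68 and TRIM34, which lie above it.

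In the major histocompatibility complex on chromosome 6 (GRCh37, 30070674 to 30311506), 6 members stand together. TRIM15 and TRIM26 were higher, TRIM10 was lower, TRIM39 had no call, TRIM31 was too low to be tested and TRIM40 was at 0. On chromosome 5 (180620924 to 180688151), TRIM41 and TRIM52 were lower and TRIM7 had no call. On chromosomes 11 and 6, neighbours were thus called in different directions by edgeR. On chromosome 6 this rests on TRIM10 alone. Its call was lost with DESeq2 (adjusted p = 0.237) and in TPM (adjusted p = 0.0678 from limma).

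By C-terminal domain, 27 of the 50 tested genes have a PRY-SPRY domain, which binds substrates such as capsids or antibodies. Of these, 15 were higher and 6 lower, or 55.6% and 22.2%, with a median log2 fold change of 0.24. Among all genes tested, 23.2% were higher and 23.4% lower. The PRY-SPRY list holds 9 of the interferon-linked genes, all of them higher, so the lists are not independent. Of 5 tested genes with a COS box, which binds microtubules, TRIM9 alone was called, and it was higher. Of the 4 tested genes with NHL repeats or a filamin domain, TRIM2 and TRIM3 were higher and TRIM32 and TRIM45 had no call. The 11 with another or no C-terminal domain were split, 4 higher and 3 lower. Of the 6 that lack a RING, TRIM14 and TRIM29 were higher, TRIM16, TRIM16L and TRIM66 lower, and TRIM44 was not called.

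Levels were compared between genes in TPM. In siControl, 46 TRIM genes had a mean of at least 1 TPM and 29 of at least 10 TPM. TRIM25 led the family in both groups, at 70.2, 65.4 and 80.7 TPM in siControl and 141, 118 and 138 TPM in siNONO. It was followed in siControl by the PRY-SPRY ligase TRIM47 at 55.7 ± 7.09 TPM (SD, n = 3), TRIM37 at 46.2 ± 1.86 TPM, TRIM27 at 43.8 ± 0.693 TPM and TRIM8 at 38.2 ± 2.64 TPM. The spreads of TRIM47 and TRIM37 came close to each other, and those of TRIM37 and TRIM27 overlapped, so the order is not firm between these neighbours. TRIM22 and TRIM29, with large fold changes, remained at 1.69 ± 0.343 and 0.813 ± 0.144 TPM in siNONO.

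Summed over all members, TRIM mRNA amounted to 795, 794 and 837 TPM in siControl and to 941, 862 and 936 TPM in siNONO. The interferon-linked members made up 21.9%, 20.6% and 21.97% of that sum in siControl and 34.9%, 34.1% and 35.5% in siNONO, with no overlap. TRIM25 alone went from 8.91% ± 0.706 (SD, n = 3) to 14.5% ± 0.651 of the sum. The remaining members summed to 635 ± 16.5 TPM in siControl and 595 ± 23.1 TPM in siNONO. The family sum was thus higher in every siNONO library, and the sum without the interferon-linked members was lower in every one. No test was run on these sums. TPM values of all genes tested were also lower in siNONO, with a median log2 difference of -0.07 on log2(TPM + 1). On counts, by contrast, the 40 tested members outside the list were split evenly, 12 higher and 12 lower. This was 30% each way, beside 23.2% higher and 23.4% lower of all genes tested.

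Of the 74 members, 20 were not expressed, taken as under 0.1 TPM in every library. For 16 of these the count was 0 in all 6 libraries: TRIM40, TRIM42, TRIM48, TRIM49, TRIM49B, TRIM49C, TRIM51, TRIM51G, TRIM58, TRIM60, TRIM61, TRIM63, TRIM64, TRIM64B, TRIM64C and TRIM77. A count of 0 allows up to 3 counts, or 0.091 to 0.137 CPM depending on the library, a limit that covers counting error only. TRIM49, TRIM49B, TRIM49C, TRIM64, TRIM64B, TRIM64C and TRIM77 come from a set of recently copied genes on chromosome 11, and none of these copies received a count. TRIM58 is a ligase of red cell precursors and TRIM63 a ligase of muscle wasting. TRIM43B, TRIM71, TRIM75 and TRIM67 had at most 18 counts in a library and at most 0.09 TPM, and TRIM67, a neuronal relative of TRIM9, still passed the filter and had no call (adjusted p = 0.115).

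A further 5 members were above that level in at least 1 library and were too low to be tested: TRIM31, TRIM43, TRIM50, TRIM55 and TRIM80P. TRIM31, known from intestinal epithelium, was counted 3 times over the siControl libraries and 7 times over those of siNONO, at most 0.39 TPM. Of the muscle-linked members, TRIM55 had 19 counts over all libraries, TRIM54 and TRIM32 had no call, and TRIM72 was at 13.7 ± 0.885 TPM in siControl. With a limit of 0.5 TPM, 25 members would count as not expressed.

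Of the 50 tested members, 16 had no call. TRIM44, TRIM65, TRIM23, TRIM36, TRIM11, TRIM7, TRIM39, TRIM35 and TRIM32 were measured at 12.5 CPM or more in every library and had log2 differences between -0.09 and 0.11. For TRIM32, a muscle and neural ligase, siNONO lay above siControl in every Set (adjusted p = 0.0576). TRIM17, TRIM45, TRIM46, TRIM54, TRIM67, TRIM73 and TRIM74 were lower in level, and for those under 5 CPM the standard errors of 0.147 to 0.458 set the size of difference that was not detectable at this depth. TRIM73 and TRIM74 are near-identical copies with fractional counts in every library, so their separate values are uncertain.

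The authors' counting program also gives the length of each gene as weighted over its transcripts, which moves when reads shift between isoforms. The lengths of the groups did not overlap for 3 of the 50 tested TRIM genes, or 6%, beside 11.3% of all genes tested. TRIM37 was 4112, 3880 and 3720 bases in siControl and 3546, 3447 and 3684 bases in siNONO. TRIM26 went from 3134 ± 57.4 bases (SD, n = 3) to 2925 ± 110 bases. TRIM29 went from 1564 ± 320 bases to 2350 ± 371 bases, a ratio of 1.503, on the few counts given above. The share of TRIM genes with separate lengths was below that of all genes.

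The genes that TRIM ligases work with were read from the same fit. Of 12 genes of cytosolic RNA sensing, 6 were higher and none lower, or 50% higher beside 23.2% of all genes tested. IRF7, a transcription factor of the interferon response, was higher by 3.14 on the log2 scale, RIGI, the RNA sensor that TRIM25 modifies, by 2.82, and IFIH1, a sensor of long double-stranded RNA, by 2.61. ZC3HAV1, which encodes the TRIM25 partner ZAP, was higher by 0.77, and the ubiquitin ligases TRAF6 and TRAF3 by 0.38 and 0.22. No call was made for MAVS, IRF3, TBK1, IKBKE, IKBKG and RNF135. In TPM 4 of the 6 were called: the difference of TRAF6 was -0.01 and that of TRAF3 was 0.09 (adjusted p = 0.971 and 0.313 from limma).

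Of 13 E2 enzymes and E2 variants, 2 were higher and 5 lower, so that 53.8% were called beside 46.6% of all genes tested, a share near the background. UBE2L6, the E2 enzyme of the ubiquitin-like protein ISG15, was at 20.6, 20.3 and 21.5 CPM in siControl and at 48.5, 45.01 and 49.4 CPM in siNONO (log2 1.20, adjusted p = 2.22e-09), with no overlap. UBE2E3 was higher by 0.15, a call that was lost with DESeq2 (adjusted p = 0.0904), in TPM (adjusted p = 0.239 from limma) and without either library of Set 2 (adjusted p = 0.0797 and 0.11). UBE2D2 and UBE2D3, general partners of RING ligases, both fell by 0.25, and UBE2L3 fell by 0.23. UBE2D2 was not called in TPM (adjusted p = 0.077 from limma). UBE2V2 and UBE2V1, inactive partners of UBE2N, fell by 0.16 and 0.11, and both lost the call without the Set as a block (adjusted p = 0.182 and 0.119). UBE2V1 was also lost with DESeq2 (adjusted p = 0.0766) and without any 1 library of Set 2 or Set 3.

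Tripartite genes with other names were not members by the rule. PML, the scaffold of nuclear bodies that bear its name, rose from 30.7, 31.7 and 34.95 CPM to 68.3, 65.1 and 75.4 CPM (log2 1.10, adjusted p = 1.54e-09). MID2 was higher by 0.27 (adjusted p = 0.049), MID1 had no call and MEFV was too low to be tested. Without the block the adjusted p of MID2 was 0.0717.

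**Figure D5:**
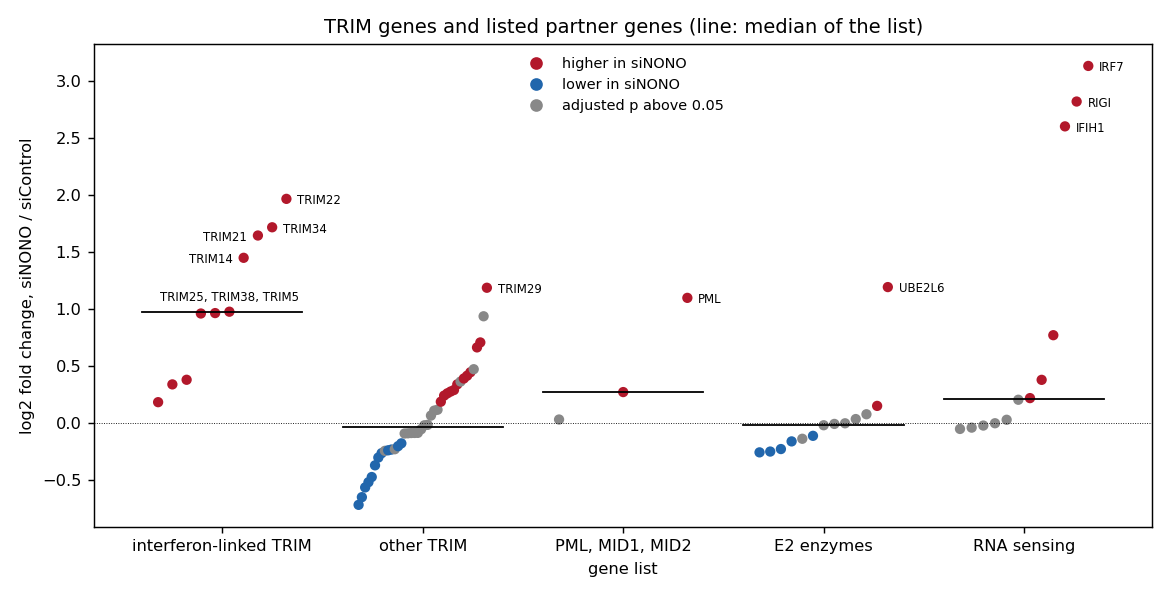
Log2 fold change of siNONO over siControl (vertical axis) for every tested gene of the interferon-linked TRIM list, the other TRIM genes, the tripartite genes PML, MID1 and MID2, the E2 enzymes and the RNA-sensing genes, each point a gene and each line the median of its list. The interferon-linked median lies at 0.97 and that of the other TRIM genes at -0.03, while single genes stand far above their list, such as PML at 1.10 and UBE2L6 at 1.20.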

How the data were processed

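RNA-seq files were used for 3 siControl and 3 siNONO libraries. After trimming with sickle, the authors mapped reads with STAR to GENCODE version 34 transcripts of GRCh37, quantified them with RSEM (version 1.3.1) and deposited for each gene an estimated count, which is not normalized, a TPM and an FPKM value, both scaled for length and library size, and 2 lengths in bases. Strand settings of the counting are not given in the sources used here. FPKM was not used.

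Counts were rounded to whole numbers and tested with edgeR (version 4.0.16, quasi-likelihood F-test in its earlier form, TMM, filterByExpr, Set as a block, Benjamini-Hochberg over 17000 genes). Before that, the method was run on simulated counts with the same dispersion for every gene and no Set effect. That run could not check the Set block. The biological coefficient of variation was 3.51%. Set numbers come from the labels. Deviations from group means correlated at 0.453, 0.268 and 0.532 within Sets 1, 2 and 3. Between libraries of different Sets the values ran from -0.468 to 0.187, with 0.167 and 0.187 between Sets 1 and 2. Deviations within a group cancel out, so part of these had to be negative. The Sets were taken as pairs, though the margin between Sets 1 and 2 was small for Set 2. No pair of replicates was as close as sampling noise alone would make it. CPM were computed from the counts with TMM factors. Symbols were had for 62162 genes. Positions came from GENCODE version 44 on GRCh37, a later annotation of the same build, and promoters from RefSeq on GRCh38.p14. Promoter sequence was had for 58 members, and TRIM11, TRIM13, TRIM16L, TRIM22, TRIM24, TRIM27, TRIM29, TRIM35, TRIM4, TRIM43, TRIM43B, TRIM45, TRIM55, TRIM60, TRIM8 and TRIM80P had no entry.

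Members and gene lists were chosen with earlier results of these data known. Genes named by rule were NONO, TRIM genes with an adjusted p of at most 0.05, an absolute log2 fold change of 0.5 or more and 1 direction in all Sets, the interferon-linked list, the 5 highest in siControl TPM, the members not expressed and the genes of the lists. Other members were named so that each is accounted for. Alternatives were DESeq2 (version 1.42.0) and its size factors, scaling by library size, a fit with no block, other filters, the edgeR 4 test, limma (version 3.58.1) on log2(TPM + 1) and log2(TPM + 0.1), added read-through counts and each library left out in turn. Adding the counts of overlapping genes without a symbol was chosen after seeing the data.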

Additional observations from a re-analysis of the deposited data

How the results depend on the processing

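The count of changed TRIM genes was 34 with the size factors of DESeq2, library size alone, no filter on low counts, at least 10 counts in every library, the edgeR 4 form of the test and both ways of adding overlapping counts. Without the replicate block it was 33, with TRIM69 lost, and 6164 genes were called over all. With the replicate block, DESeq2 called 2612 genes higher and 2615 lower, 5227 in all, and 27 TRIM genes (TRIM29 had no adjusted p), of which 3 lacked a RING and 0 were muscle-linked. Using limma on log2(TPM + 1) and log2(TPM + 0.1), 5257 and 5250 genes were called, 1643 and 1638 higher, where the median of all genes lay at -0.07 and -0.09. Both gave 21 TRIM genes, 11 of them higher, with a TRIM median of 0.0138 and 0.0133, and called 0 COS-box genes, 1 with NHL repeats or a filamin domain, 4 with another or no C-terminal domain and 0 muscle-linked genes. TRIM69 (-0.0129 and -0.0140) and TRAF6 (-0.00549 and -0.0062) reversed there. The cause was not tested. Of PML, MID1 and MID2, 1 was called in place of 2 with library size alone, no replicate block, DESeq2 or limma, since MID2 was lost.

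Leaving out 1 library at a time gave 29 to 35 changed TRIM genes (19 to 23 higher, 9 to 12 lower) and 6497 to 7653 changed genes (3254 to 3858 higher, 3106 to 3795 lower). The TRIM median then ran from 0.14 to 0.17. The interferon-linked genes called were 9 to 10, PRY-SPRY 17 to 21, COS-box 1 to 2, PHD-bromodomain 2 to 3, RING-less 4 to 5, PML, MID1 and MID2 1 to 2, E2 enzymes 5 to 7 and RNA-sensing genes 6 to 7. TRIM10, TRIM16L, TRIM24, TRIM68 and TRIM69 lost their call without either library of Set 1 or Set 2, TRIM44 was gained without either library of Set 1, and TRIM67 was gained without the siControl library of Set 3, the shallowest. Leaving a library out also leaves its Set with 1 library, so these fits rest on the other Sets. Genes under about 3 CPM, such as TRIM22, TRIM29 and TRIM10, rest on few counts.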
